A study of Mus musculus with 6 samples.

Results

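The 32 genes described here copy DNA or switch that copying on: the replicative helicase and its loaders and activators, primase, sliding clamp and clamp loader, the enzymes that make deoxynucleotides, factors that package new DNA, and the cyclins and E2F factors that start S phase. They were taken as a fixed list of gene symbols, and all 32 were found among the 14986 genes of the expression table and tested. RNA was sequenced from 6 libraries of long-term haematopoietic stem cells (LT-HSC) sorted from mouse bone marrow, 3 labelled Zcchc8 KO and 3 labelled wild type, each made from 1500 cells, to ask what loss of ZCCHC8, the scaffold protein of the nuclear exosome targeting complex, does to the transcriptome. The labels give no strain, age, sex, Cre driver or exon deleted, and they do not say whether replicates came from separate animals. The p-values therefore rest on differences between libraries that could be technical. Bones were crushed, red cells lysed and lineage-positive cells depleted before the sort, and the RNA is labelled polyA. Values are FPKM, fragments scaled to gene length and to library depth. The gene length behind them fits all annotated exons of a gene together, which can be longer than the mRNA present. Levels of different genes therefore compare only roughly.

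Replication origins are prepared in G1, when the origin recognition complex, CDC6 and CDT1 load the ring-shaped MCM helicase onto DNA. At the start of S phase, cyclin E and its kinase partner help to convert that ring into the active helicase by joining CDC45 and the GINS complex to it, and E2F transcription factors raise the RNA of most of these genes together. LT-HSC are known as a mostly quiescent population that enters the cycle rarely, so these transcripts are commonly read as a sign of the cells preparing to divide.

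The promoters were examined for a sequence that the listing did not use. RefSeq promoters of GRCm38.p6, from 250 bases before to 50 bases after the start, matched 28 of the 32 genes. They were searched on both strands for the E2F-type letters TTTCCCGC, TTTGGCGC, TTTCGCGC and TTTGCCGC, allowing matches to overlap. The letters stood in the promoters of 13 of the 28 genes (46.4%), against 429 of the 8535 tested genes that have a promoter in the table (5.03%), and the promoters of the other 15 held none. The CCAAT letters, read on both strands, stood in 20 of the 28 (71.4%), against 43.9% of the tested genes. For both kinds of letters, a gene with more than 1 promoter counted if any of them held a match. The 9 stretches below are those in which a match lies before the RefSeq start, printed 5′ to 3′ on the strand of the gene with the matched letters in capitals, to show the bases around it in genes of different roles. The capitals are alike because the search fixed them.
Mcm5 (chr8:75109336-75109387, plus strand): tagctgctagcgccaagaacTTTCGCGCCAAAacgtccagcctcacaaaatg
Mcm6 (chr1:128359725-128359835, minus strand): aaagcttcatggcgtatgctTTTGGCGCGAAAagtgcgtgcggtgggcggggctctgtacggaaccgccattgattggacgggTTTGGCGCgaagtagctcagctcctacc
Mcm7 (chr5:138172030-138172059, minus strand): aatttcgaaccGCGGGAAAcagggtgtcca
Cdc6 (chr11:98908002-98908031, plus strand): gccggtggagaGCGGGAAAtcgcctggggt
Gins3 (chr8:95633507-95633536, plus strand): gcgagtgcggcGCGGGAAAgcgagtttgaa
Pola1 (chrX:93632266-93632313, minus strand): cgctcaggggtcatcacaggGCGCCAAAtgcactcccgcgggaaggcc
Rfc3 (chr5:151651209-151651229, minus strand): acgtcgcacgcTTTCGCGCtc
Uhrf1 (chr17:56304117-56304146, plus strand): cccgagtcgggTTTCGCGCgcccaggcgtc
Dtl (chr1:191575545-191575572, minus strand): atcagaaagcgtgacgtcagTTTGGCGC
In Mcm5 and Mcm6 the capitals hold a match on each strand that share bases, and Mcm6 has a further match closer to its start. In Gins3 the match begins 41 bases before the RefSeq start and in Dtl 8 bases before it. The matches in Mcm3, Cdt1, E2f2 and Clspn lie after the start and are not printed. Mcm7, Uhrf1 and E2f2 each have another promoter that held no E2F-type match. The printed stretches of Mcm7, Cdc6, Gins3, Rfc3 and Uhrf1, 5 of the 9, lie inside the span that GENCODE M21 gives the gene. The 4 genes without a promoter in the table are Mcm4, Gins1, Gins2 and Ccne2.

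Zcchc8 itself stood at 10.4, 5.54 and 5.92 FPKM in the KO libraries and at 8.93, 5.24 and 5.16 FPKM in the wild-type libraries, with overlapping groups, and 1 value per gene cannot show the loss of single exons, so "KO" below means the libraries so labelled. The reads behind the FPKM numbered 18963362 to 25709663 in KO and 18059318 to 18909212 in wild type. All 10 LT-HSC marker genes were in the table, with Ly6a between 109 and 174 FPKM and Hoxb5 listed at 0 in its lowest library. Their summed level was 286 to 338 FPKM in KO against 366 to 434 FPKM in wild type. Of the 10, 5 were lower at an unadjusted p under 0.05 in limma, against 4.33% of all tested genes, and none passed. Marker sums of other blood cells moved with the groups as well. Of all tested genes, 0.177% were higher at an adjusted p under 0.05 in limma. The 9 of 11 erythroid markers in the table summed to 438 to 473 FPKM in KO and 117 to 156 FPKM in wild type, 4 of 8 tested being higher at an adjusted p under 0.05. The 7 of 7 markers of multipotent and lymphoid-primed progenitors, cells that divide more often than LT-HSC, summed to 184 to 196 FPKM in KO and 122 to 131 FPKM in wild type, with 2 of 5 tested, Cd48 and Dntt, passing as higher. That sum rests on Cd48, and without it the groups overlap at 79.4 to 88.2 FPKM in KO and 69.8 to 81.8 FPKM in wild type, while Cd34 and Flt3 were lower by value. No marker in the table was at 0 in all libraries, and the part of these cell types in the replication gene values was not tested. In RNA pooled from many cells, fewer cells of a type and less RNA per cell cannot be told apart.

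None of the 32 replication genes passed the test of KO against wild type, in which 27 of 11837 genes (0.228%) had an adjusted p under 0.05, 0.177% as higher and 0.0507% as lower (limma on log2(FPKM + 1), Benjamini-Hochberg over all tested genes). The smallest adjusted p among them was 0.116, of Gins3. At an unadjusted p under 0.05 there were 6 of the 32 (18.8%), against 9.2% of all tested genes: Gins1, Rrm2, Ccne1 and E2f2 were higher in KO, where the share of all genes was 4.87%, and Gins3 and Cdc45 were lower, where it was 4.33%. The groups did not overlap for 11 of the 32 (34.4%), 7 higher and 4 lower, against 15.2% of all tested genes, 8.24% higher and 6.99% lower. The genes did not move one way: 18 were higher by value and 14 lower, against 50.2% higher and 49.8% lower of all tested genes, and their median log2 difference was 0.03, against 0.00 over all tested genes.

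**Figure D1:**
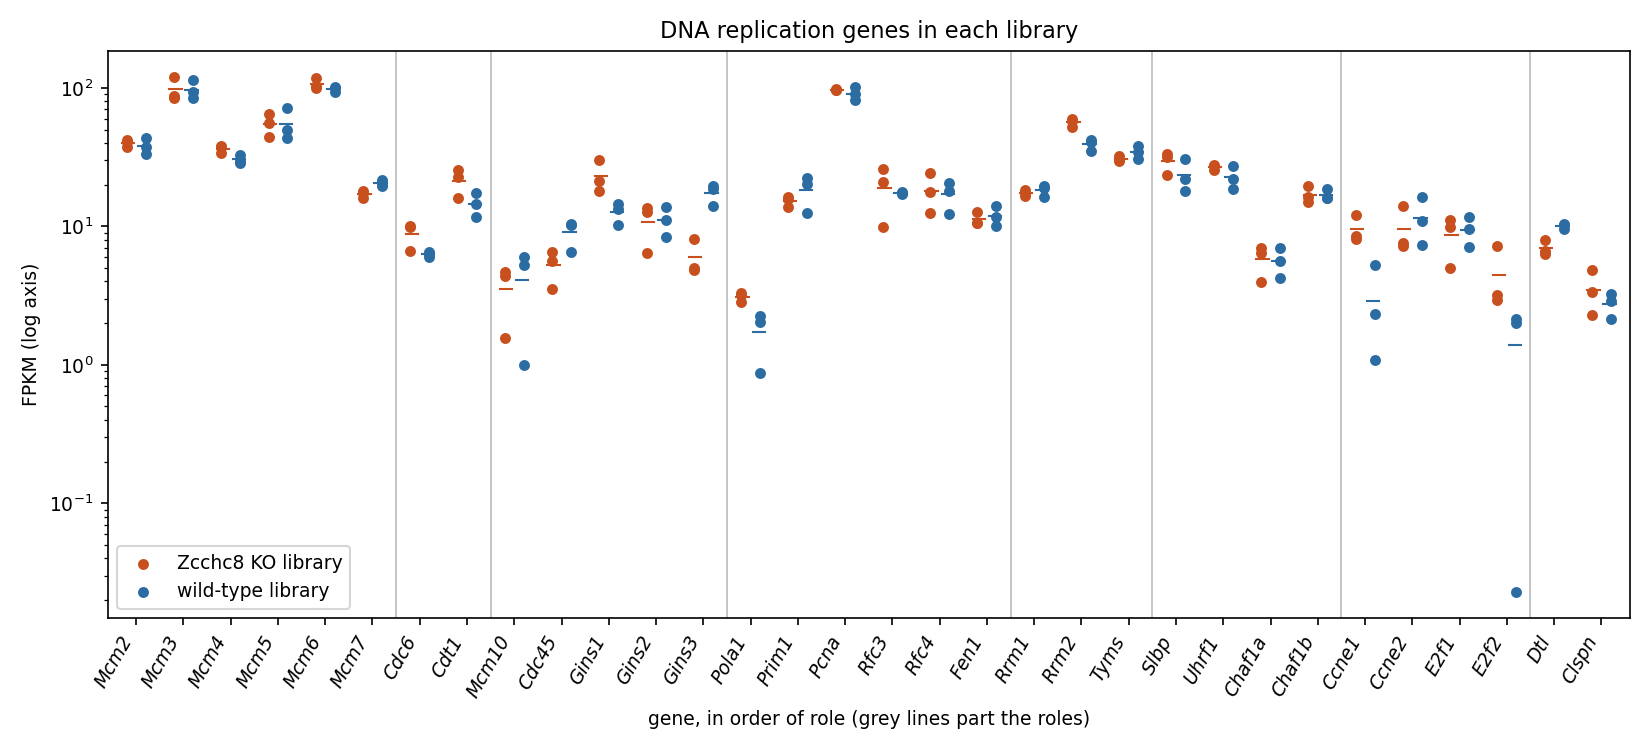
FPKM of the 32 DNA replication genes on a log axis, with the 3 Zcchc8 KO libraries (orange) left of the 3 wild-type libraries (blue) for each gene, short lines at the group means and grey lines between roles. Single values run from 121 FPKM for Mcm3 in KO library 2 to 0.0227 FPKM for E2f2 in wild-type library 1, and the groups part for 11 genes, among them Gins3, Rrm2 and Ccne1.

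The MCM ring genes differed little between the groups. MCM2 to MCM7 form the motor of the helicase in equal numbers, yet their FPKM differed. Mcm6 and Mcm3 held the first 2 places and Mcm7 the last in 6 of 6 libraries. The highest was 5.63 to 7.60 times the lowest in KO and 4.60 to 5.49 times in wild type. The part of the exon lengths used in this order was not tested. Mcm6 averaged 107 ± 8.95 FPKM in KO and 98.0 ± 4.54 FPKM in wild type (SD, n = 3 each, as for all means below). Mcm3 averaged 97.6 ± 20.4 FPKM in KO and 97.4 ± 14.6 FPKM in wild type, so these 2 do not differ beyond their spread. Mcm5 followed at 55.2 ± 10.7 FPKM in KO and 54.8 ± 14.6 FPKM in wild type. Mcm2 averaged 40.0 ± 2.55 FPKM in KO and 38.2 ± 5.31 FPKM in wild type. Of the 6 genes, 4 were within overlapping groups.

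The remaining pair of ring genes stood apart by little and in opposite directions. Mcm4 had 37.4, 33.9 and 38.0 FPKM in KO and 29.6, 28.9 and 32.9 FPKM in wild type, each KO library being above each wild-type one (log2 difference 0.25 ± 0.15 SE, limma adjusted p = 0.649). Mcm7 had 17.4, 15.9 and 17.9 FPKM in KO and 20.6, 19.5 and 21.6 FPKM in wild type, each KO library being below (-0.26 ± 0.17, limma adjusted p = 0.701). Their ratio within a library does not depend on scaling. Mcm4 over Mcm7 was 2.15, 2.13 and 2.12 in KO against 1.43, 1.48 and 1.52 in wild type. The KO ratios lie closer together than counting error on 1336 to 1979 Mcm7 reads would give, so their closeness does not measure precision. Mcm7 shares 7.25% of its exon bases with Ap4m1 on the other strand.

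The loader genes were higher by value in KO without passing. Cdc6, the ATPase that recruits the MCM ring to origins, had 6.62, 10.1 and 9.92 FPKM in KO and 6.50, 6.31 and 6.06 FPKM in wild type, groups that part by a narrow margin (limma adjusted p = 0.667). Cdt1, its partner in loading, had 16.0, 25.5 and 22.6 FPKM in KO and 11.7, 14.5 and 17.6 FPKM in wild type, and here KO library 1 lies within the wild-type range (limma adjusted p = 0.563). Dtl, the receptor of the ubiquitin ligase that destroys CDT1 once DNA copying has begun, went the other way by value, with 6.29, 6.69 and 7.97 FPKM in KO and 10.2, 10.3 and 9.59 FPKM in wild type. All 3 KO libraries were below all 3 wild-type libraries, at a log2 difference of -0.47 ± 0.23 (SE, limma adjusted p = 0.579). Clspn, encoding the checkpoint mediator claspin at the fork, averaged 3.50 ± 1.30 FPKM in KO and 2.75 ± 0.547 FPKM in wild type.

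The helicase activators held the widest split. Gins3 (chromosome 8, 95633453 to 95645060, GRCm38, plus strand), a subunit of the GINS complex, had 4.81, 4.98 and 8.17 FPKM in KO and 18.6, 14.1 and 19.6 FPKM in wild type. The highest KO library was below the lowest wild-type one, and the mean was 0.343 of the wild-type mean. Its log2 difference of -1.42 ± 0.27 (SE, 95% limma interval -2.03 to -0.81) came with a limma adjusted p of 0.116. Gins1 (chromosome 2, 150905400 to 150931280, plus strand), another subunit of the same complex, had 18.1, 29.9 and 21.2 FPKM in KO and 10.3, 13.4 and 14.4 FPKM in wild type. Here every KO library was above every wild-type one, at a log2 difference of 0.80 ± 0.24 (SE, limma adjusted p = 0.34). Gins2 averaged 10.8 ± 3.89 FPKM in KO and 11.1 ± 2.72 FPKM in wild type, and 67.3% of its exon bases also lie in exons of Gse1 on the opposite strand, so its value is uncertain. Gins1 over Gins3 was thus 3.76, 6.01 and 2.59 in the KO libraries and 0.552, 0.954 and 0.735 in the wild-type libraries.

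Cdc45 (chromosome 16, 18780447 to 18811987, minus strand), which completes the active helicase together with GINS, had 6.58, 3.52 and 5.63 FPKM in KO and 10.4, 6.58 and 10.3 FPKM in wild type. KO library 1 and wild-type library 2 are level at this precision, so the groups only just part, and the log2 difference was -0.70 ± 0.31 (SE, limma adjusted p = 0.537). Leaving out any of 4 libraries (KO 2, KO 3, wild type 1, wild type 3) took the unadjusted p of Cdc45 to 0.05 or more, with log2 differences between -0.76 and -0.48. Of its exon bases 5.96% are shared with Ufd1 on the opposite strand. Mcm10, which helps the helicase to start unwinding, had 4.70, 1.57 and 4.38 FPKM in KO and 5.23, 6.03 and 0.997 FPKM in wild type, the least reproducible gene of the set by its standard error.

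**Figure D2:**
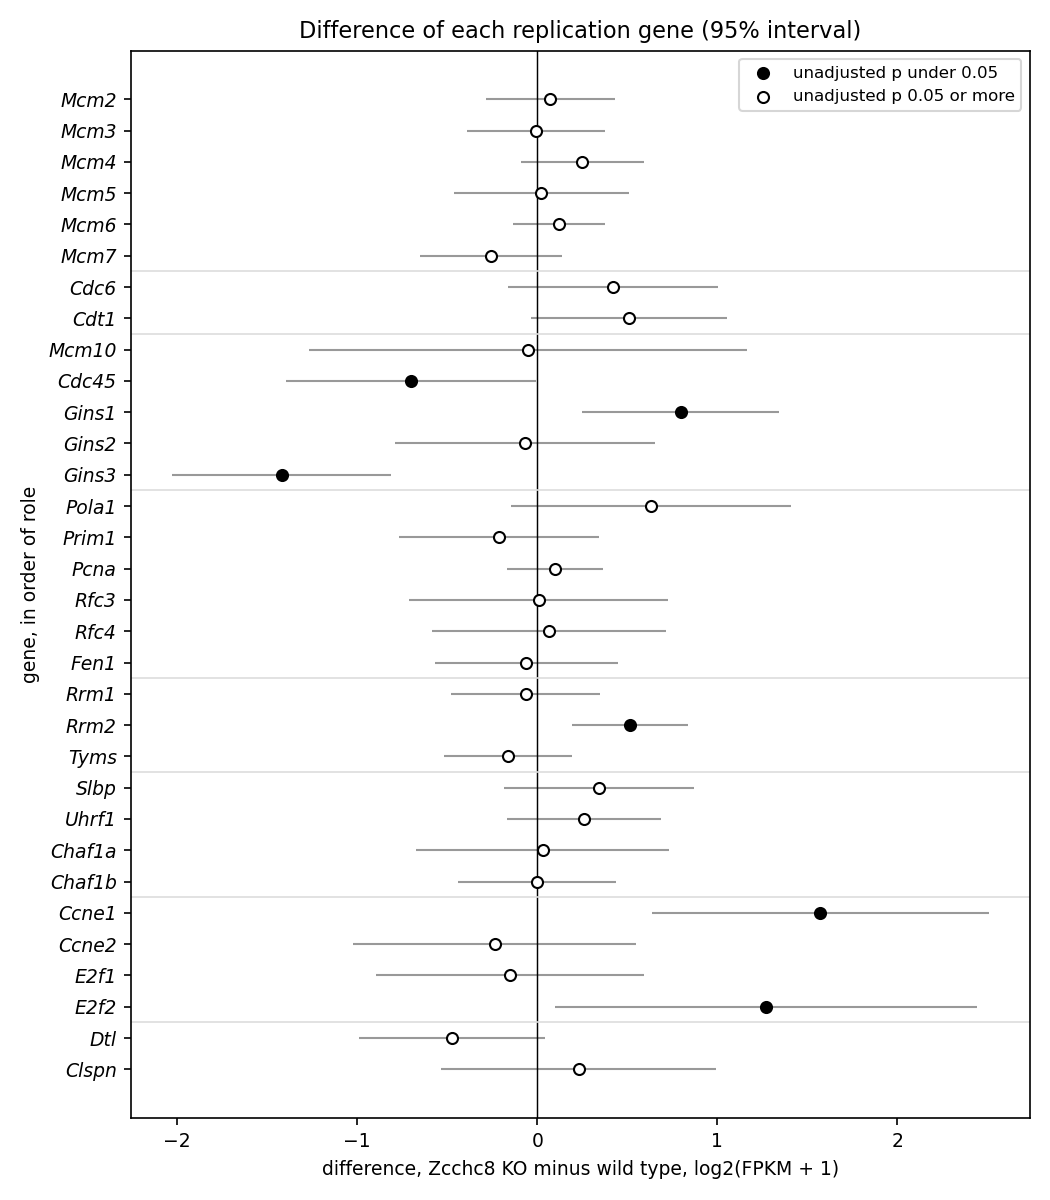
Difference of each replication gene between Zcchc8 KO and wild type in log2(FPKM + 1), with limma's 95% interval, in order of role from top to bottom. Filled points are the 6 genes with an unadjusted p under 0.05, 4 to the right of zero and 2 to the left, with Gins3 farthest left and Ccne1 farthest right.

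Among the 6 genes of the primase, clamp and lagging strand none had an unadjusted p under 0.05. Pcna, the sliding clamp, averaged 97.2 ± 0.716 FPKM in KO and 91.0 ± 9.57 FPKM in wild type. Pola1, the catalytic subunit of the polymerase that starts each new strand, had the lowest mean over the 6 libraries, 2.41 FPKM, with 3.28, 3.18 and 2.84 FPKM in KO and 2.05, 2.24 and 0.876 FPKM in wild type. Its groups did not overlap (log2 difference 0.63 ± 0.34 SE, limma adjusted p = 0.617). Its partner Prim1, the primase subunit, averaged 15.4 ± 1.27 FPKM in KO and 18.4 ± 5.20 FPKM in wild type. The clamp loader genes overlapped between groups. Rfc3 had 20.8, 26.0 and 9.83 FPKM in KO and 17.3, 17.8 and 17.2 FPKM in wild type. Rfc4 averaged 18.2 ± 6.01 FPKM in KO and 17.0 ± 4.26 FPKM in wild type. It shares 12.7% of its exon bases with Eif4a2 on the opposite strand. Fen1, the nuclease that trims the ends of lagging strand fragments, averaged 11.3 ± 1.28 FPKM in KO and 11.9 ± 2.05 FPKM in wild type, but 78.8% of its exon bases overlap the opposite-strand gene Gm10143.

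Among the enzymes of deoxynucleotide synthesis, Rrm2 alone had groups that did not overlap. Rrm2 (chromosome 12, 24708241 to 24714146, plus strand), the small subunit of ribonucleotide reductase, whose amount is known to follow S phase, had 52.5, 57.5 and 59.4 FPKM in KO and 42.3, 35.0 and 40.7 FPKM in wild type. The log2 difference was 0.51 ± 0.14 (SE, limma adjusted p = 0.285), with the KO mean 1.44 times the wild-type mean. Rrm1, the large subunit, averaged 17.4 ± 0.904 FPKM in KO and 18.3 ± 1.76 FPKM in wild type. Rrm2 over Rrm1 was 2.87, 3.49 and 3.42 in the KO libraries against 2.16, 2.15 and 2.15 in the wild-type libraries. The wild-type ratios lie closer together than counting error on 1773 to 2131 Rrm2 reads would give, so their closeness does not measure precision. Tyms, which makes thymidylate, averaged 30.5 ± 1.35 FPKM in KO and 34.4 ± 3.84 FPKM in wild type.

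**Figure D3:**
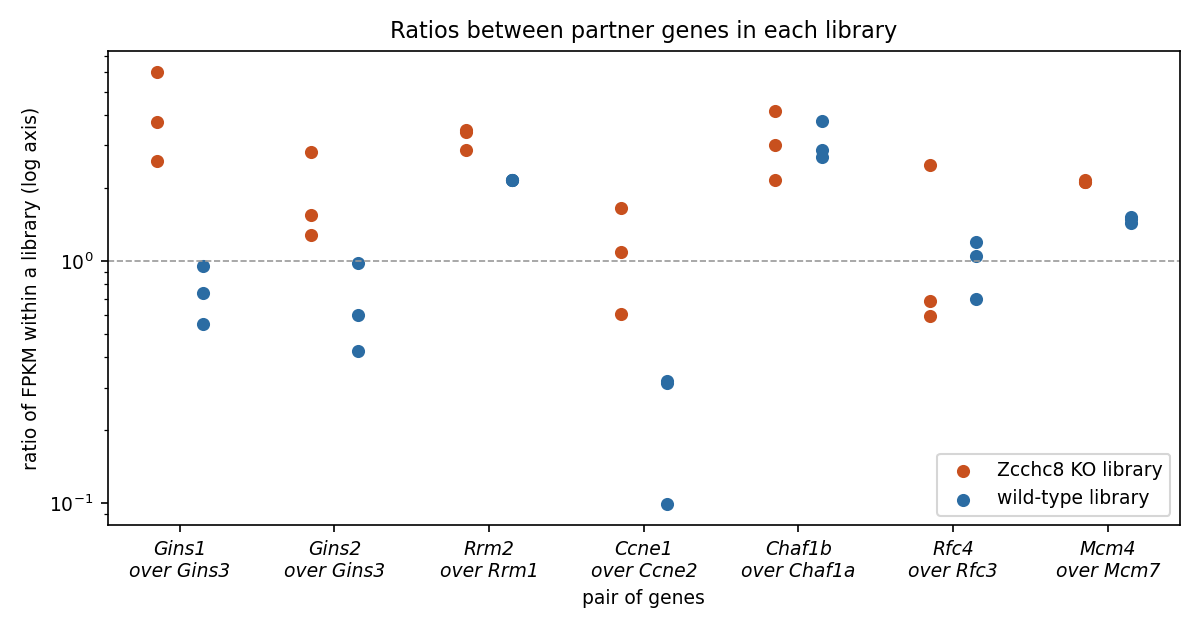
Ratio of FPKM between partner genes within each library on a log axis, with KO libraries (orange) left of wild-type libraries (blue) and a dashed line at 1. KO libraries lie above wild-type ones for Gins1 and Gins2 over Gins3, Rrm2 over Rrm1, Ccne1 over Ccne2 and Mcm4 over Mcm7, and overlap them for Chaf1b over Chaf1a and Rfc4 over Rfc3.

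The partner pairs were chosen after the values of the genes were seen and the ratios carry no test. Of 12 ratios computed, 7 had groups that did not overlap, where 15.2% of all tested genes taken singly did not. Each of the 7 holds a gene whose own groups did not overlap, so the count repeats those genes.

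The genes that package the copied DNA overlapped between groups in 4 of 4 cases. Slbp, which binds the stem-loop of histone mRNA, averaged 29.7 ± 5.28 FPKM in KO and 23.5 ± 6.48 FPKM in wild type. It shares 7.80% of its exon bases with Gm10459 on the opposite strand. Uhrf1, which guides the copying of DNA methylation, averaged 26.9 ± 1.24 FPKM in KO and 22.6 ± 4.45 FPKM in wild type. The subunits of chromatin assembly factor, Chaf1b (17.0 ± 2.24 FPKM in KO and 16.9 ± 1.52 FPKM in wild type) and Chaf1a (5.79 ± 1.62 FPKM in KO and 5.61 ± 1.38 FPKM in wild type), had log2 differences of 0.00 and 0.03, with 52.5% of the exon bases of Chaf1a shared with Ubxn6 on the other strand.

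In the genes of S phase entry, 1 member of each related pair was higher in KO by value and the other was not. Ccne1 (chromosome 7, 38097984 to 38107534, minus strand), cyclin E1, had 12.0, 8.50 and 8.17 FPKM in KO and 1.08, 2.32 and 5.24 FPKM in wild type. Every KO library was above every wild-type one and the KO mean was 3.32 times the wild-type mean, although the wild-type libraries spread widely among themselves. Without wild-type library 3 the ratio of means was 5.62, and without wild-type library 1 it was 2.53. The log2 difference ranged from 1.20 to 1.99 with 1 library left out. The log2 difference was 1.57 ± 0.41 (SE, 95% limma interval 0.64 to 2.51, adjusted p = 0.248). Cyclin E2, encoded by Ccne2, had 7.24, 14.0 and 7.53 FPKM in KO and 10.9, 7.37 and 16.4 FPKM in wild type, ranges that lie over each other. Ccne2 shares 17.4% of its exon bases with Ints8 on the opposite strand. Ccne1 over Ccne2 was 1.66, 0.605 and 1.09 in KO against 0.0995, 0.315 and 0.319 in wild type. E2f2 (chromosome 4, 136172394 to 136196057, plus strand), an activator of replication genes, had 3.19, 2.93 and 7.23 FPKM in KO and 0.0227, 2.15 and 2.0 FPKM in wild type, where the lowest value rests on 2 reads. Its log2 difference was 1.27 ± 0.52 (SE, limma adjusted p = 0.501), and without KO library 3 or wild-type library 1 it was 0.93 and 0.74, with an unadjusted p of 0.05 or more. A pseudocount of 0.1 gave 2.33 and voom on recovered reads 2.99, also with an unadjusted p of 0.05 or more. E2f1, the related activator, averaged 8.68 ± 3.25 FPKM in KO and 9.47 ± 2.32 FPKM in wild type.

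**Figure D4:**
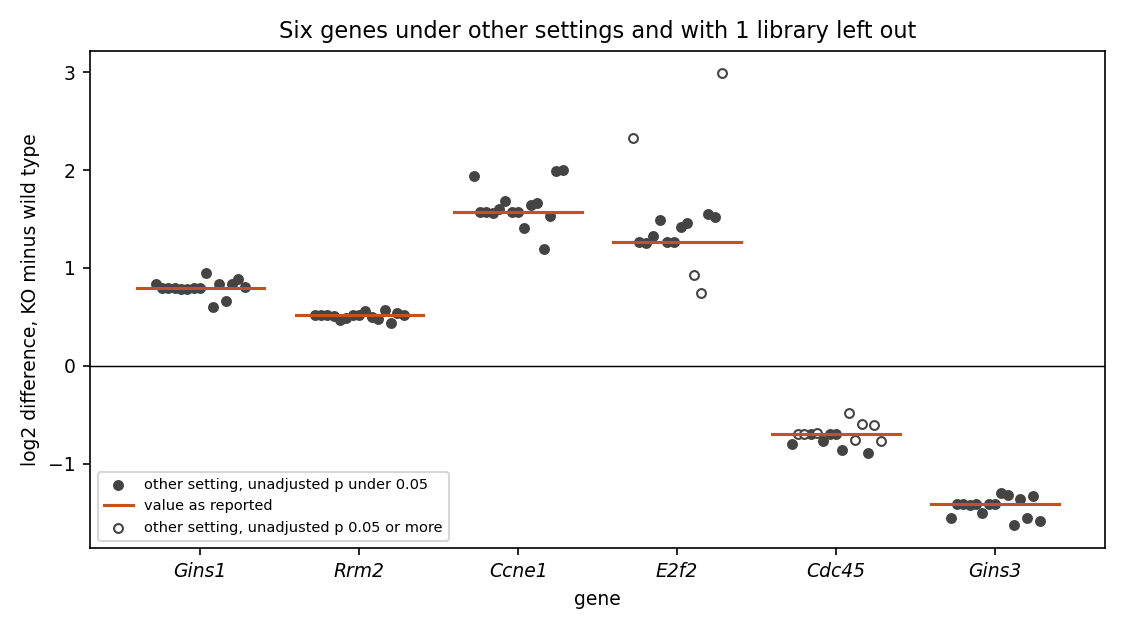
Log2 difference between Zcchc8 KO and wild type of the 6 genes with an unadjusted p under 0.05, under the reported setting (orange line) and under the other settings and with 1 library left out (points, filled where the unadjusted p is under 0.05). All points of a gene lie on 1 side of zero, and open points occur for E2f2 and Cdc45.

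The spread between replicates went with the level. In the 22 genes at 10 FPKM or more the median coefficient of variation was 12.2% in KO and 16.0% in wild type, against 28.9% in KO and 24.5% in wild type in the 10 genes below that. The limma intervals of 22 of the 32 genes stayed within a log2 difference of 1 in either direction on the log2(FPKM + 1) scale. The narrowest was that of Mcm6 (-0.13 to 0.38) and the widest that of Mcm10 (-1.27 to 1.17). The other 10 intervals, those of Gins1, Gins3, Cdc45, Ccne1 and E2f2 among them, reach past that size. No library was high for the whole set: KO library 2 was the highest of the 6 for 8 genes and wild-type library 1 the lowest for 8. The summed level of the 32 genes was 784, 881 and 804 FPKM in KO and 776, 764 and 773 FPKM in wild type. As a share of all FPKM in the library it was 0.128%, 0.148% and 0.132% in KO and 0.131%, 0.130% and 0.131% in wild type, where the groups overlap.

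The difference between KO and wild type was also set beside the promoter letters. Of the 13 genes with E2F-type letters 2 had an unadjusted p under 0.05, Gins3 and E2f2, in opposite directions, against 9.2% of all tested genes, and their median log2 difference was 0.12. Of the 15 genes with a promoter and no match 3 did, Cdc45, Rrm2 and Ccne1, with a median of 0.00.

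No other gene of the pathway passed. In 4 further lists of 80 genes in all (origin recognition and origin kinases, polymerases and fork factors, nucleotide supply, and E2F with pocket proteins) 77 were tested and none passed. At an unadjusted p under 0.05 in limma 5 were higher (6.49%) and 0 lower, against 4.87% and 4.33% of all tested genes, so the higher share is near that of all genes. By value 50 of the 77 were higher and 27 lower, against 50.2% higher of all tested genes, and their median log2 difference was 0.13. None of the 17 origin genes was among those 5. E2f6, a repressor of the family, had 6.44, 7.45 and 8.64 FPKM in KO and 2.02, 3.72 and 4.17 FPKM in wild type (limma adjusted p = 0.34). E2f4, which acts with pocket proteins in resting cells, averaged 34.1 ± 3.86 FPKM in KO and 23.7 ± 1.33 FPKM in wild type (limma adjusted p = 0.377). In both genes the groups did not overlap. Ctps, which makes CTP, averaged 15.2 ± 2.01 FPKM in KO and 9.23 ± 1.48 FPKM in wild type. Rpa2, of the single-strand binding complex, averaged 62.9 ± 9.19 FPKM in KO and 48.1 ± 7.07 FPKM in wild type, with groups that did not overlap. Tipin, of the fork protection complex, had 73.7, 63.6 and 58.0 FPKM in KO and 44.8, 42.8 and 61.0 FPKM in wild type, with groups that did. Of 22 mitosis genes, 0 passed and 0 had an unadjusted p under 0.05 in limma, 14 were higher by value, and their sum was 495 to 506 FPKM in KO and 471 to 473 FPKM in wild type. That sum was 0.0826% to 0.0829% of all FPKM in KO and 0.0792% to 0.0806% in wild type, so these groups part on both scales. Without Ccnb2, the highest of the 22, the groups overlap on both scales. Ccnb2 had 100, 90.7 and 126 FPKM in KO and 98.8, 99.5 and 76.0 FPKM in wild type, with overlapping groups.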

How the data were processed

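Each deposited value is the authors' FPKM of 1 gene in 1 library, with fastp, Bowtie2, featureCounts and the build mm10 named in the submitters' processing notes; tool versions and the strand setting were not given. The 11837 genes averaging 1 FPKM or more entered the test on log2(FPKM + 1), a scale that makes changes of low genes look smaller, with limma 3.58.1 in R 4.3.3 (variance trend, two-sided, Benjamini-Hochberg, threshold 0.05). FPKM times the GENCODE M21 exon length came to whole reads within 0.05 for 97.8% to 98.3% of values under 100 reads, and for all 32 genes. These reads give the depth and the voom alternative, cover counting error only, and carry no molecular identifiers. The fit was tested on simulated data. All 32 genes are named, and of the other replication lists those with an unadjusted p under 0.05, at most 4 a list. The members and lists were chosen with earlier results of these data known. Groups and replicate numbers came from the sample titles.

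Beside the lists named with the results, 8 marker lists were summed per library. The T and NK cell sum was mostly Nkg7, at 289 to 308 FPKM in KO and 174 to 228 FPKM in wild type. Without Nkg7 the groups of that list overlap. Sums in KO against wild type were 349 to 389 and 214 to 312 FPKM for megakaryocytes (none of 5 tested passing, 3 of them lower by value; without Pf4 the sums overlap, at 88.3 to 98.9 and 85.8 to 118 FPKM), 3901 to 4324 and 3059 to 3191 FPKM for neutrophils (1 of 11 higher, 4 lower by value), 161 to 205 and 0.116 to 1.02 FPKM for eosinophils (4 of 4 higher), 64.2 to 112 and 20.3 to 35.6 FPKM for mast cells and basophils (1 of 4 higher, 2 lower by value), 248 to 294 and 129 to 155 FPKM for monocytes and dendritic cells (2 of 6 higher), 105 to 125 and 816 to 928 FPKM for B cells (1 of 7 lower, Igkc; without it the sums are 105 to 124 and 61.8 to 76.6 FPKM, and 5 of the 7 were higher at an unadjusted p under 0.05 in limma), 310.2 to 323 and 189 to 232 FPKM for T and NK cells (none of 4), and 10.7 to 12.6 and 8.09 to 10.8 FPKM for stroma and endothelium (none of 1).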

Additional observations from a re-analysis of the deposited data

How the results depend on the processing

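Under 15 other settings none of the 32 genes passed, with a lowest adjusted p of 0.081 (Gins3, limma, mean FPKM of at least 5), and Gins1, Gins3, Rrm2 and Ccne1 had an unadjusted p under 0.05 in all 15. Cdc45 did in 7 of 15 and E2f2 in 10 of 14. The 27 calls over all genes fell to 8 without the variance trend, to 8 with voom on the recovered reads, an alternative added once the data had been seen, and to 11 with the replicate block, and ranged from 11 to 19 with 1 library left out. The deviations of same-numbered libraries from their group means had correlations of 0.0235, 0.0071 and 0.00369 over the tested genes. Taken from means of only 3 libraries, such values cannot show whether these libraries shared a sort or preparation, and the labels name no pairing. The block left 0 members past the threshold. Genes lower at an unadjusted p under 0.05, 2 as reported, were 1 without a filter, with a mean of at least 5 FPKM and under quantile scaling, and 1 to 2 with 1 library left out, as Cdc45 crossed the line. They were 3 without the variance trend, where Dtl joined them (unadjusted p = 0.031, limma), and voom called Dtl (0.0056) and not Cdc45. With 1 library left out the median log2 difference of the 32 genes ranged from 0.017 to 0.10, of the other replication genes from 0.10 to 0.21, and of mitosis genes from 0.048 to 0.16. The sign held in all settings for 20 genes and turned in 12, none with a reported difference beyond 0.24. Their ranges with 1 library left out were -0.52 to 0.032 for Ccne2, -0.13 to 0.24 for Chaf1a, -0.10 to 0.074 for Chaf1b, -0.35 to 0.16 for E2f1, -0.17 to 0.058 for Fen1, -0.25 to 0.24 for Gins2, -0.63 to 0.32 for Mcm10, -0.020 to 0.17 for Mcm2, -0.17 to 0.11 for Mcm3, -0.13 to 0.23 for Mcm5, -0.26 to 0.40 for Rfc3 and -0.16 to 0.30 for Rfc4. The sign also turned for Mcm10 with a pseudocount of 0.1 (0.00028), under quantile scaling (0.0027) and with voom (0.11), for Mcm5 under quantile scaling (-0.019), with a fixed total (-0.010) and with voom (-0.0055), for Rfc3 with a fixed total (-0.028) and for Chaf1b with voom (0.014). The cause was not tested. The fewest reads behind a value were 2, for E2f2, and 52, for Ccne1, both in wild-type library 1, whose depth was near that of wild-type library 2.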
